A study of Mus musculus with 9 samples.

Results

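The genes described are 10 markers of the endothelial cell, the cell that lines every blood vessel: Ptprb, Cldn5, Pecam1, Cdh5, Kdr, Flt1, Tek, Tie1, Vwf and Emcn. They were taken by symbol, as textbook markers, though earlier results of these data were known when they were chosen. All 10 of them, of 23238 symbols in the count tables, were found, had reads in every library and passed the filter on low counts. The RNA came from the gastrocnemius, a calf muscle, of female C57BL/6 mice given as 4 weeks old, and was read by QuantSeq 3′ sequencing, which counts tags near the end of each transcript. The 3 treatment groups had 3 libraries each. Normal mice had 4 saline injections and were given water by mouth for 9 days. Cisplatin mice had 4 intraperitoneal doses of 3 mg/kg cisplatin, a chemotherapy agent that binds DNA, every other day, with the same water. RP mice had that cisplatin course and 100 mg/kg of RP by mouth over the 9 days, where RP is the labels' name for the agent and the series title speaks of an extract of the peony Paeonia lactiflora. No group received RP without cisplatin, and the labels do not say that each library came from a separate mouse, so p-values measure the spread between these libraries, which may in part be technical.

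Endothelial cells read growth signals through receptor tyrosine kinases. Kdr and Flt1 bind the VEGF ligands, Kdr carrying most of the growth and survival signal and Flt1 acting largely as a trap for ligand. Tek (Tie2) binds the angiopoietins, with Angpt1 from perivascular cells activating it and Angpt2 from the endothelium itself often opposing that, while Tie1 is its partner receptor and the phosphatase Ptprb (VE-PTP) restrains it. Cdh5 (VE-cadherin), Cldn5 and Pecam1 hold neighbouring cells together, Vwf is the clotting protein of the Weibel-Palade bodies, and Emcn is a sialomucin of capillaries and veins. Transcription factors of the ETS family such as Erg and Fli1 maintain the expression of many of these genes.

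Cisplatin libraries had less RNA of the receptors and more of Cldn5 than Normal libraries, while Cdh5 and Pecam1 gave no call. Of the 10 genes, 6 fell (Ptprb, Kdr, Flt1, Tek, Tie1 and Vwf) and 1 rose (Cldn5) in Cisplatin against Normal. In RP against Cisplatin, 4 rose (Ptprb, Kdr, Tek and Vwf) and 1 fell (Cldn5), and in RP against Normal 0 of the 10 were called by edgeR's quasi-likelihood test, by DESeq2 or by limma-voom, with an unadjusted p under 0.05 in edgeR for 3 (Ptprb, Kdr and Tek, each at a lower level in RP). A call is a Benjamini-Hochberg adjusted p under 0.05 over all 12859 genes tested. Of all genes tested, 54.5% were called in Cisplatin against Normal (28.2% lower and 26.3% higher), 48.8% in RP against Cisplatin (24.6% higher and 24.2% lower) and 0.505% in RP against Normal. A call as such was therefore common in the first 2 of these comparisons, and what follows turns on direction and size. The median log2 fold change of the 10 genes was -0.66, 0.47 and -0.06 in these comparisons, against -0.08, 0.07 and -0.01 over all genes tested. RP against Cisplatin and Cisplatin against Normal share the Cisplatin libraries, so a high or low value there enters both with opposite sign.

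RefSeq promoter sequences (GRCm38.p6) were at hand for 6 of the 10 genes. Those of Kdr, Flt1, Tek, Tie1 and Cldn5 are printed because they set the 4 receptor genes that fell in Cisplatin libraries beside Cldn5, which rose there. Each run is the 250 bases before the RefSeq transcript start, read 5′ to 3′ on the gene's own strand. GENCODE places some starts elsewhere. Its Tie1 gene begins at 118490061 on the minus strand, so most of the Tie1 window lies within that gene. The windows of Kdr and Emcn overlap their GENCODE genes by a few bases. Capitals mark the letters CCGGAA or AGGAAG on either strand (on the minus strand they read TTCCGG or CTTCCT). These are among the forms that the core of an ETS factor site can take, and other forms were not searched or marked.
Kdr, chr5:75978456-75978705, minus strand: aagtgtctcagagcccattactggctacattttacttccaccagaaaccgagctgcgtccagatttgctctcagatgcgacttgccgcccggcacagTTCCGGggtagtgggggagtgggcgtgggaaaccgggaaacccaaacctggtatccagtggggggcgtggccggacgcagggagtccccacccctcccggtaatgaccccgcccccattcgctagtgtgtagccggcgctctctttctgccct
Flt1, chr5:147726012-147726261, minus strand: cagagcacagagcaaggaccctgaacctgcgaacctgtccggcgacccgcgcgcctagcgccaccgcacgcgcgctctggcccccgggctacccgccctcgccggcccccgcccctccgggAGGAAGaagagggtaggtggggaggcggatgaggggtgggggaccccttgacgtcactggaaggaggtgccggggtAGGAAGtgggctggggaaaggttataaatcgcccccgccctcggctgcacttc
Tek, chr4:94739039-94739288, plus strand: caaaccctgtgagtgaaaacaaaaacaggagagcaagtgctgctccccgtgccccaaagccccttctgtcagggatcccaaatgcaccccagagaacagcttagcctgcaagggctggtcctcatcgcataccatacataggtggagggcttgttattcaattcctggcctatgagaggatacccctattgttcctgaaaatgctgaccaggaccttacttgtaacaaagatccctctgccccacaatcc
Tie1, chr4:118489850-118490099, minus strand: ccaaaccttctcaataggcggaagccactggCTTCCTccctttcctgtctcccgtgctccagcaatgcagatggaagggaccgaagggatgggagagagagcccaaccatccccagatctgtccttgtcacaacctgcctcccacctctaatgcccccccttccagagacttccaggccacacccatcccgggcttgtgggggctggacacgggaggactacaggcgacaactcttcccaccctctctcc
Cldn5, chr16:18776597-18776846, plus strand: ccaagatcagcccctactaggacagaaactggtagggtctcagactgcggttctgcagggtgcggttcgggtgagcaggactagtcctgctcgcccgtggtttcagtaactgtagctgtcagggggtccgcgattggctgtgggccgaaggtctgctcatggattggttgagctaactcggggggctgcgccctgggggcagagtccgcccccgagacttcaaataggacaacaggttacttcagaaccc

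Of these searched ETS cores, the Kdr window held 1, the Flt1 window 2 and the Tie1 window 1, while the windows of Tek and Cldn5 held neither. Other letters with GGAA, on either strand, were not counted. The window of Emcn, not printed, held 2. At least 1 of these cores was present in 38.2% of 32851 promoter windows of the same length (CCGGAA in 12% and AGGAAG in 29.5%), so 4 of 6 is a description of these letters. The KLF core CACCC, searched on both strands as well, occurred in 5 of the 6 windows (2 matches each in Cldn5 and Tie1, 1 each in Kdr, Flt1 and Tek, none in Emcn) and in 52% of all windows. Neither the SOX core ACAATG, present in 10.7% of all windows, nor the glucocorticoid response element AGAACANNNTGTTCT, present in 0.00913%, matched any of the 6. No match overlapped a match of another motif.

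Kdr (VEGF receptor 2; chromosome 5, 75932827 to 75978458, minus strand) had 74.0, 45.6 and 47.4 CPM in the Normal libraries, 23.5, 25.7 and 29.1 in Cisplatin and 42.8, 47.7 and 29.4 in RP. CPM here are library-scaled read counts (TMM-scaled CPM, a scaling that allows for differences in RNA composition). The Cisplatin libraries were lowest and close together, whereas the third RP library lay just above the highest of them. Kdr fell by 1.09 ± 0.21 (SE) on the log2 scale in Cisplatin against Normal, which is 2.13-fold lower (adjusted p = 0.000753). In RP against Cisplatin it rose by 0.61 ± 0.21 (adjusted p = 0.0292). That rise was not called when Cisplatin replicate 1 (adjusted p = 0.0898), Cisplatin replicate 2 (0.0731), RP replicate 1 (0.0858) or RP replicate 2 (0.122) was left out. RP stood at -0.48 ± 0.21 against Normal (adjusted p = 0.359).

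Flt1 (VEGF receptor 1; chromosome 5, 147561604 to 147726011, minus strand) had 96.1, 97.3 and 91.3 CPM in Normal, 62.5, 43.5 and 81.0 in Cisplatin and 109, 73.9 and 77.1 in RP. Normal libraries were tight and above every Cisplatin library, but the Cisplatin libraries spread widely and overlapped with RP. Flt1 fell by 0.61 ± 0.20 in Cisplatin against Normal (adjusted p = 0.0214). The call was lost without Normal replicate 1 (adjusted p = 0.0530), Normal replicate 2 (0.05004) or Cisplatin replicate 2 (0.0950, with a log2 fold change of -0.40). In RP against Cisplatin the difference of 0.48 ± 0.20 was not called (adjusted p = 0.0668), though it was without Cisplatin replicate 3 (0.70, adjusted p = 0.0107). Its range over 18 alternative analyses was 0.27 to 0.70, with adjusted p from 0.0107 to 0.304, and 6 of them gave a call.

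Tek (chromosome 4, 94739289 to 94874976, plus strand) had the largest fall of the 10. Its values were 14.7, 10.9 and 8.90 CPM in Normal, 3.99, 4.09 and 4.997 in Cisplatin and 7.44, 9.53 and 6.46 in RP. The 3 Cisplatin libraries lay below all others, and RP lay between, overlapping with Normal. Tek fell by 1.40 ± 0.26 on the log2 scale, 2.64-fold lower, in Cisplatin against Normal (adjusted p = 0.000536), and rose by 0.84 ± 0.26 in RP against Cisplatin (adjusted p = 0.0174). The rise was not called without Cisplatin replicate 1 (adjusted p = 0.0507), Cisplatin replicate 2 (0.0545) or RP replicate 2 (0.0791). RP against Normal gave -0.56 ± 0.25 (adjusted p = 0.372).

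Tie1 (chromosome 4, 118471191 to 118490061, minus strand) had 19.7, 19.5 and 15.9 CPM in Normal, 16.4, 9.03 and 8.09 in Cisplatin and 15.9, 16.6 and 13.8 in RP. Cisplatin replicate 1 reached the Normal range, and the other two Cisplatin libraries lay well below it. Tie1 fell by 0.72 ± 0.24 in Cisplatin against Normal (adjusted p = 0.0229). This call was lost without Normal replicate 1 (adjusted p = 0.0690), Normal replicate 2 (0.0625), Cisplatin replicate 2 (0.0948) or Cisplatin replicate 3 (0.0923), and without Cisplatin replicate 1 the log2 fold change was -1.09. The RP against Cisplatin difference of 0.47 ± 0.24 was not called (adjusted p = 0.126), but was without Cisplatin replicate 1 (0.85, adjusted p = 0.00535).

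Ptprb (chromosome 10, 116275523 to 116389535, plus strand) had the most reads of the 10 in Normal and the tightest replicates. It had 161, 158 and 156 CPM in Normal, 73.8, 51.1 and 69.0 in Cisplatin and 119, 129 and 108 in RP. The groups did not overlap at all: every RP library lay between the Normal and the Cisplatin libraries. Ptprb was 2.45-fold lower in Cisplatin than in Normal (log2 fold change -1.29 ± 0.15, adjusted p = 8.14e-06) and rose by 0.88 ± 0.14 in RP against Cisplatin (adjusted p = 0.000251). Its RP level stood at -0.42 ± 0.14 against Normal and was not called (adjusted p = 0.236), with non-overlapping groups. Non-overlap in RP against Normal was seen in 19.2% of all genes tested (9.53% lower and 9.65% higher), and Ptprb was the 1 gene of the 10 to show it. Ptprb supplied 32.1% of the summed CPM of the 10 genes in Normal, 19.8% in Cisplatin and 27.1% in RP.

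**Figure D1:**
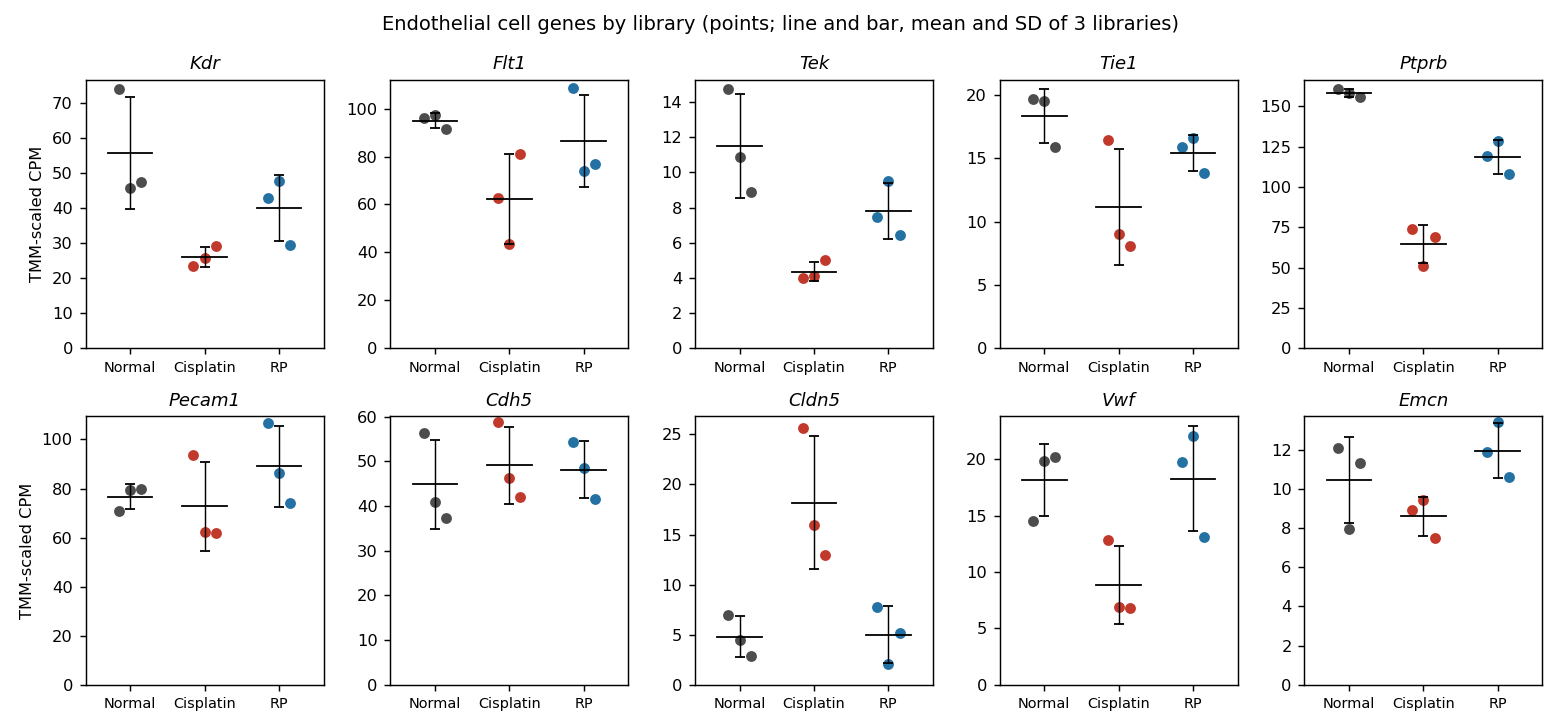
TMM-scaled CPM of the 10 endothelial genes in each library (points) of the Normal, Cisplatin and RP groups, with the mean and SD of 3 libraries as line and bar, each panel on its own linear axis. Ptprb, Kdr, Tek and Vwf are lowest in Cisplatin, Cldn5 is highest there, and Cdh5 and Pecam1 overlap across the groups.

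The junction genes did not follow the receptors. Cldn5 (chromosome 16, 18776847 to 18778262, plus strand), the main sealing claudin of endothelial tight junctions, had 7.01, 4.51 and 2.89 CPM in Normal, 25.6, 16.0 and 13.0 in Cisplatin and 7.75, 2.09 and 5.15 in RP. All 3 Cisplatin libraries exceeded all 6 others, and Normal and RP overlapped. It rose by 1.92 ± 0.42 on the log2 scale, 3.78-fold, in Cisplatin against Normal (adjusted p = 0.00158) and was 3.64-fold lower in RP than in Cisplatin (log2 fold change -1.86 ± 0.41, adjusted p = 0.0021). RP against Normal was 0.05 ± 0.44 (adjusted p = 0.975). These are small counts, 24 to 58 reads per Normal library, 109 to 218 per Cisplatin library and 21 to 75 with RP. Cldn5 made up 0.959% of the summed CPM of the 10 genes in Normal, 5.52% in Cisplatin and 1.13% in RP.

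Cdh5 (chromosome 8, 104101625 to 104144511, plus strand), the cadherin of endothelial adherens junctions, had 56.3, 40.8 and 37.4 CPM in Normal, 58.9, 46.3 and 42.1 in Cisplatin and 54.4, 48.5 and 41.7 in RP. The 3 groups covered nearly the same range. Its log2 fold changes were 0.13 ± 0.18 in Cisplatin against Normal (adjusted p = 0.567) and -0.03 ± 0.18 in RP against Cisplatin (adjusted p = 0.913). Pecam1 (CD31; chromosome 11, 106654217 to 106750628, minus strand), an adhesion receptor also carried by platelets and leukocytes, had 70.8, 79.4 and 79.7 CPM in Normal, 93.8, 62.4 and 62.0 in Cisplatin and 107, 86.3 and 74.1 in RP. Cisplatin replicate 1 was above every Normal library and the other two were below them, so the groups overlapped. Pecam1 differed by -0.08 ± 0.18 in Cisplatin against Normal (adjusted p = 0.74) and by 0.29 ± 0.18 in RP against Cisplatin (adjusted p = 0.188). The second of these was called without Cisplatin replicate 1 (0.52, adjusted p = 0.0230).

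Vwf (chromosome 6, 125546774 to 125686679, plus strand) had 14.5, 19.9 and 20.2 CPM in Normal, 12.8, 6.94 and 6.78 in Cisplatin and 19.7, 22.0 and 13.1 in RP. Cisplatin replicate 1 came close to the lowest Normal and RP libraries without reaching them. Vwf fell by 1.05 ± 0.27 in Cisplatin against Normal (2.06-fold lower, adjusted p = 0.00535) and rose by 1.05 ± 0.27 in RP against Cisplatin (2.08-fold, adjusted p = 0.00578), with RP at 0.01 ± 0.26 against Normal (adjusted p = 0.994). Megakaryocytes and platelets hold Vwf too. The summed CPM of 8 platelet genes was 47.3 to 51.5 in the Normal group, 11.1 to 28.7 in the Cisplatin group and 34.8 to 48.2 with RP, with Gp6 at 0 in every library, and their part in the Vwf values was not tested.

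Emcn (chromosome 3, 137341067 to 137432185, plus strand) had 12.1, 7.98 and 11.3 CPM in Normal, 8.93, 9.41 and 7.50 in Cisplatin and 11.9, 13.4 and 10.6 in RP. The RP libraries lay above all Cisplatin libraries, and Normal overlapped with both. Neither Cisplatin against Normal (-0.28 ± 0.22, adjusted p = 0.304) nor RP against Cisplatin (0.47 ± 0.22, adjusted p = 0.086) was called.

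**Figure D2:**
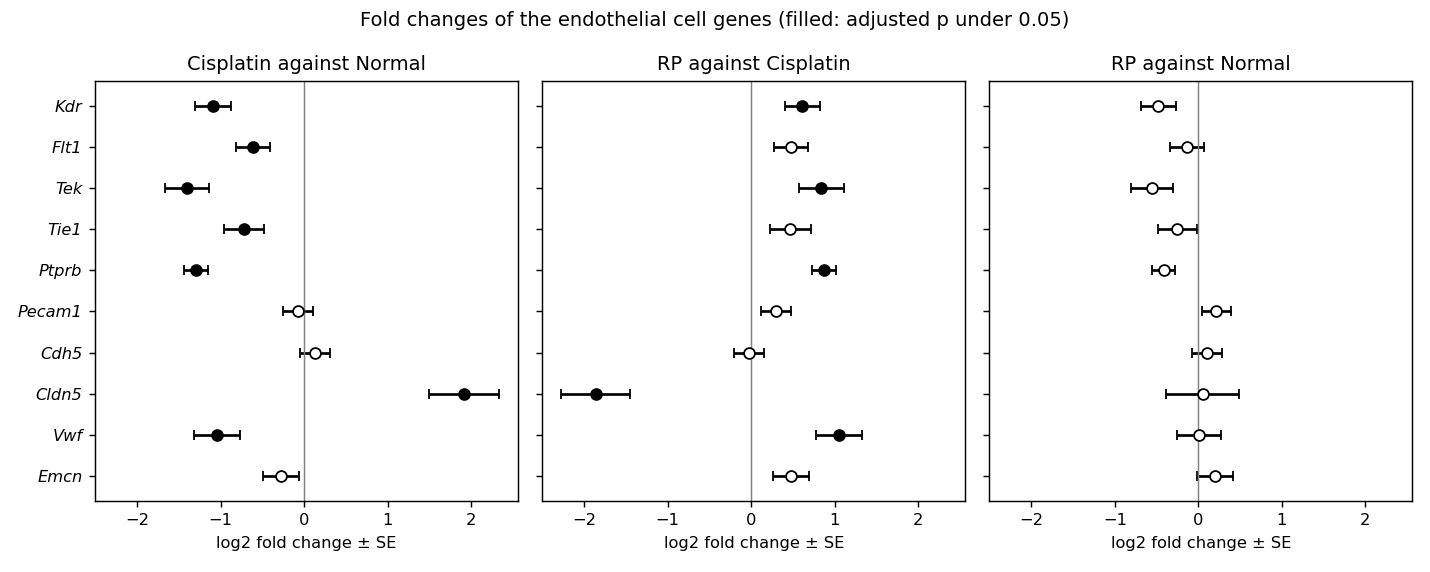
Log2 fold changes of the 10 genes with their SE (edgeR, 3 libraries a group) for Cisplatin over Normal, RP over Cisplatin, and RP over Normal; the first and second share the Cisplatin libraries. Tek (-1.40) and Ptprb (-1.29) lie lowest and Cldn5 (1.92) highest in Cisplatin against Normal, and the RP against Normal estimates lie between -0.56 and 0.22.

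Groups did not overlap for 6 of the 10 genes in Cisplatin against Normal (Ptprb, Kdr, Flt1, Tek and Vwf lower, Cldn5 higher), where groups did not overlap for 62.2% of all genes tested (31.9% lower and 30.3% higher). In RP against Cisplatin they did not overlap for 6 genes either (Ptprb, Kdr, Tek, Vwf and Emcn higher, Cldn5 lower), beside 56.8% of all genes (29.0% higher and 27.8% lower). The summed CPM of the 10 genes was 494 ± 29.0 (SD, n = 3) in Normal, 326 ± 52.9 in Cisplatin and 441 ± 58.1 in RP. In bulk muscle RNA, fewer endothelial cells and less RNA of these genes per cell cannot be told apart. The sum hid a change of makeup: the share of Pecam1 was 15.6% in Normal, 22.2% in Cisplatin and 20.1% in RP, and that of Cdh5 was 9.03%, 15.1% and 10.9%.

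How alike 2 genes varied was described by the root mean square difference of their log2 CPM over the 9 libraries, each gene centred on its own mean, with the 9 libraries sharing depth and treatment. Kdr and Tek were the closest of the 45 pairs (0.156), followed by Ptprb and Tek (0.222) and by Pecam1 and Cdh5 (0.244). The 9 pairs with Cldn5 were the 9 most distant, from 0.940 with Cdh5 upwards, and the mean distance of Cldn5 to the others was 1.29 against 0.461 to 0.561 for the other 9 genes. In a search of 9441 genes averaging 5 CPM or more, Tek was the third closest to Kdr, after Wee1 (0.146) and Ptges3l, and Kdr the third closest to Tek, after Rab7b (0.126) and Fam114a1. Closest to Ptprb were Rsu1 (0.0971), Acvr1 and Sptbn1, and closest to Tie1 were Ankrd50 (0.0955), Sh3pxd2b and Pbx3. Vwf was followed by Msrb2 (0.134), Cav2 and Mif4gd, and Flt1 by Cgrrf1 (0.151), Abhd14a and Pkd1. For Pecam1 they were Csrp1 (0.114), Npdc1 and Fkbp8, for Cdh5 Phc2 (0.119) and Samd4b, and for Emcn Anxa3 (0.124), Dctpp1 and Mat2b. Cldn5 had no such near neighbour: 8430408G22Rik came closest at 0.285, then Rrp9 and Slc25a38. The distance is not scaled to a gene's own spread. It therefore grows with large changes and with spread between replicates, of which counting error is a part. Cldn5 had both, and the distance is small for genes that changed little, such as Pecam1 and Cdh5.

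The angiopoietin ligands of Tek had larger estimated fold changes than Tek itself. Angpt1, the Tek agonist, had 57.1, 33.9 and 64.1 CPM in Normal, 6.11, 2.95 and 2.86 in Cisplatin and 15.2, 30.5 and 31.1 in RP. The 3 groups did not overlap, and RP lay between the other two. Angpt1 fell by 3.71 ± 0.36 on the log2 scale in Cisplatin against Normal (adjusted p = 2.31e-06) and rose by 2.70 ± 0.36 in RP against Cisplatin (adjusted p = 4.5e-05), standing at -1.01 ± 0.30 in RP against Normal (adjusted p = 0.178). Angpt2 went the other way, with 3.62, 2.08 and 1.56 CPM in Normal, 20.4, 19.0 and 11.8 in Cisplatin and 3.41, 5.76 and 3.53 in RP. Every Cisplatin library exceeded all others, so that Angpt1 outnumbered Angpt2 in tags in Normal and RP libraries and Angpt2 outnumbered Angpt1 in Cisplatin libraries. Angpt2 rose by 2.81 ± 0.35 in Cisplatin against Normal (adjusted p = 1.76e-05) and fell by 2.01 ± 0.32 in RP against Cisplatin (adjusted p = 0.000207).

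Vegfa, the ligand of Kdr and Flt1 that muscle fibres supply, had 118, 94.7 and 153 CPM in Normal, 49.6, 52.4 and 83.0 in Cisplatin and 72.8, 80.7 and 101 in RP. Cisplatin lay below Normal throughout and overlapped with RP. Vegfa fell by 0.98 ± 0.22 in Cisplatin against Normal (adjusted p = 0.00173), and its difference in RP against Cisplatin was 0.46 ± 0.22 (adjusted p = 0.0925), called without Cisplatin replicate 3 (0.72, adjusted p = 0.0110), with library size as the only scaling (0.0151) and with no filter (0.0457). The other VEGF ligands went both ways, so that 3 of the 5 fell and 2 rose. Vegfb, which binds Flt1, fell by 0.79 ± 0.17 in Cisplatin against Normal (adjusted p = 0.00127), and Vegfc, a ligand of Flt4 with 1 to 34 reads per library, fell by 2.56 ± 0.61 (adjusted p = 0.00296). Figf (Vegfd), another ligand of the lymphatic receptor Flt4, was at 7.03 ± 1.5 CPM in Normal, 35.9 ± 7.0 in Cisplatin and 7.17 ± 2.1 in RP, and rose by 2.35 ± 0.24 in Cisplatin against Normal (adjusted p = 4.19e-06). Pgf, which binds Flt1 and like Vegfb and Vegfc was named after its values were seen, rose by 2.59 ± 0.36 (adjusted p = 4.63e-05) and fell by 1.96 ± 0.34 in RP against Cisplatin (adjusted p = 0.000363). Co-receptors fell with the receptors: Nrp1 by 1.29 ± 0.16 (adjusted p = 1.95e-05) and Ramp2, the partner of the adrenomedullin receptor, by 2.29 ± 0.17 (adjusted p = 2.18e-07). Of the 18 tested genes of this list of VEGF and angiopoietin ligands, co-receptors and modulators, 6 rose and 9 fell in Cisplatin against Normal (median log2 fold change -0.63), 7 rose and 6 fell in RP against Cisplatin (0.27). Calls made up 83.3% and 72.2% of this list, beside 54.5% and 48.8% of all genes tested.

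**Figure D3:**
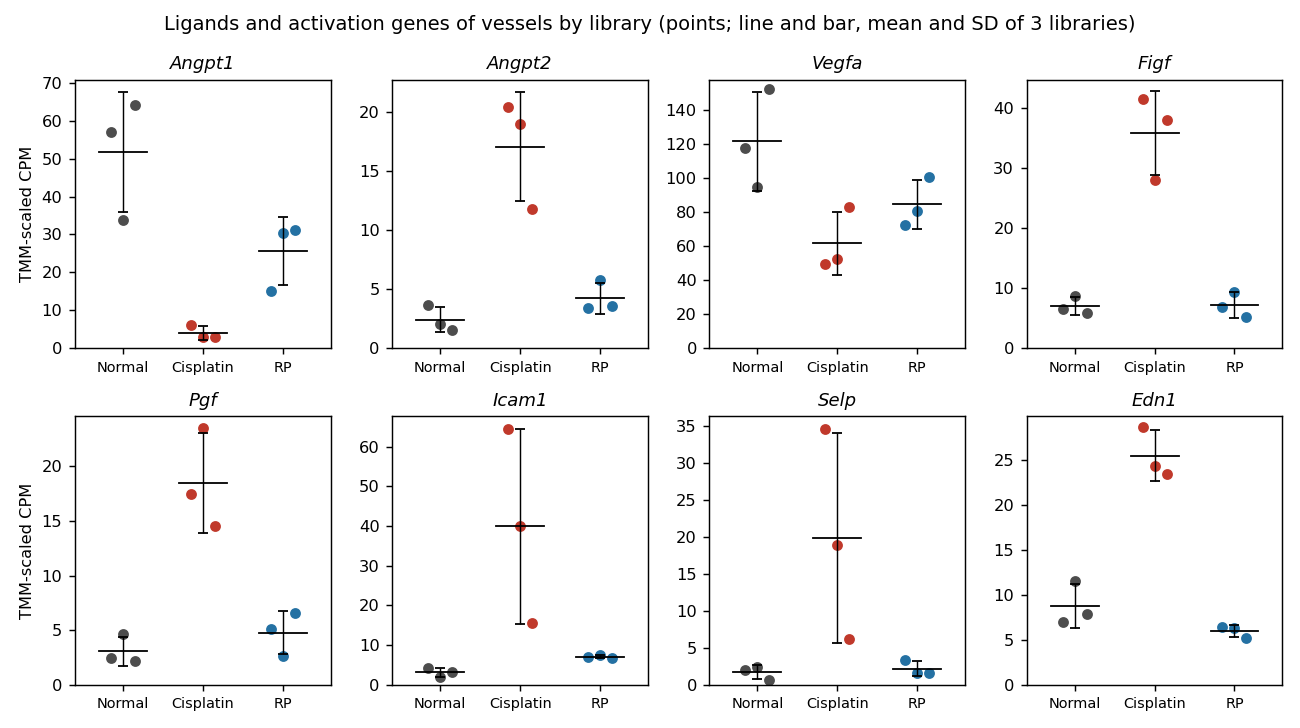
TMM-scaled CPM of ligands and of activation genes by library (points) in Normal, Cisplatin and RP, with mean and SD of 3 libraries, each panel on its own linear axis. Angpt1 and Vegfa are lowest in Cisplatin, whereas Angpt2, Figf, Pgf, Icam1, Selp and Edn1 are highest there, and Icam1 and Selp spread widely among the Cisplatin libraries.

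Among transcription factors of the endothelium, calls in Cisplatin against Normal were mostly of a lower level, though many gave no call. Erg had 8.94, 7.98 and 10.1 CPM in Normal, 6.11, 5.04 and 3.45 in Cisplatin and 13.7, 12.3 and 7.67 in RP. Its Cisplatin libraries lay below all others. Erg fell by 0.88 ± 0.28 in Cisplatin against Normal (adjusted p = 0.0167, lost without Normal replicate 3 at 0.0609 or Cisplatin replicate 3 at 0.0688) and rose by 1.20 ± 0.28 in RP against Cisplatin (adjusted p = 0.00287). Fli1 fell by 1.49 ± 0.25 (adjusted p = 0.000205) and rose by 1.25 ± 0.25 (adjusted p = 0.00098). Hey1, a Notch target of arterial endothelium, fell by 2.26 ± 0.33 (adjusted p = 6.8e-05) and rose by 1.88 ± 0.33 (adjusted p = 0.000396). Among the 17 tested regulators, 9 fell, 1, Ets2, rose and 7 were not called in Cisplatin against Normal (median -0.43). In RP against Cisplatin 8 rose and 2 fell (median 0.57). The called share was 58.8% in both comparisons, beside 54.5% and 48.8% of all genes tested.

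Junction and surface genes outside the 10 also went both ways. Of 19 tested, 10 fell and 4 rose in Cisplatin against Normal (median -0.70), and 8 rose and 1 fell in RP against Cisplatin (median 0.57). The called share was 73.7% and 47.4%, beside 54.5% and 48.8% of all genes tested. Clec14a, a C-type lectin of vessel walls, fell by 1.45 ± 0.25 (adjusted p = 0.000316), and Cd34, the sialomucin of capillaries and progenitor cells, fell by 1.21 on the log2 scale. The 4 that rose were Esam, Mmrn2, Robo4 and S1pr1. Mmrn2, an extracellular ligand of Clec14a, had 36.4, 27.1 and 29.6 CPM in Normal, 85.8, 70.1 and 51.2 in Cisplatin and 65.2, 63.6 and 46.8 in RP. Unlike Cldn5 it overlapped between Cisplatin and RP and did not overlap between RP and Normal. Mmrn2 rose by 1.15 ± 0.20 in Cisplatin against Normal (adjusted p = 0.000277), differed by -0.24 ± 0.19 in RP against Cisplatin (adjusted p = 0.327) and stood at 0.92 ± 0.20 in RP against Normal (adjusted p = 0.0643 by edgeR's quasi-likelihood test, 0.00358 by DESeq2 and 0.0268 without Cisplatin replicate 3).

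The list of endothelial barrier, transport and vascular tone genes had the lowest median of the 6 endothelial lists in Cisplatin against Normal. Of 24 tested, 15 fell and 3 rose in Cisplatin against Normal (median -1.26), and 15 rose and 2 fell in RP against Cisplatin (median 0.97). Calls made up 75% and 70.8% of this list, beside 54.5% and 48.8% of all genes tested. The caveolar coat genes Ptrf (Cavin1) and Sdpr (Cavin2), which fibres, fat and smooth muscle also express, were at 515 and 356 CPM in Normal, 144 and 89.3 in Cisplatin and 439 and 293 in RP. Ptrf fell by 1.84 ± 0.15 (adjusted p = 4.29e-07) and Sdpr was 3.99-fold lower (adjusted p = 4.71e-07). Tcf15, a factor that with Meox2 drives fatty acid uptake by muscle capillaries, fell by 2.34 ± 0.26 (adjusted p = 7.83e-06) and rose by 1.78 ± 0.26 in RP against Cisplatin (adjusted p = 0.0001). Edn1, the vasoconstrictor endothelin, had 7.01, 11.6 and 7.82 CPM in Normal, 28.7, 24.3 and 23.4 in Cisplatin and 6.41, 6.36 and 5.25 in RP, and all Cisplatin libraries stood above the rest. It rose by 1.53 ± 0.21 (adjusted p = 4.75e-05) and fell by 2.08 ± 0.22 in RP against Cisplatin (adjusted p = 6.87e-06). Nos3, the endothelial nitric oxide synthase, was not called in Cisplatin against Normal (-0.55 ± 0.30, adjusted p = 0.128, and 0.0462 without Cisplatin replicate 1) or in RP against Cisplatin (0.67 ± 0.29, adjusted p = 0.0732, and 0.0284 without Cisplatin replicate 1). Plvap, of the diaphragms of fenestrated vessels, was not called in Cisplatin against Normal (-0.22, adjusted p = 0.526).

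Activation genes were uneven. Of 16 tested, 5 rose and 6 fell in Cisplatin against Normal (median -0.68), and 4 rose and 6 fell in RP against Cisplatin (median 0.72). Calls made up 68.8% and 62.5% of this list, beside 54.5% and 48.8% of all genes tested. Icam1, which binds leukocyte integrins, had 4.23, 1.97 and 3.25 CPM in Normal, 64.5, 39.9 and 15.5 in Cisplatin and 7.03, 7.55 and 6.66 in RP. Cisplatin replicate 1 was highest and replicate 3 lowest of the Cisplatin libraries, all above the rest. Icam1 rose by 3.67 ± 0.44 (adjusted p = 1.35e-05) and fell by 2.50 ± 0.39 in RP against Cisplatin (adjusted p = 0.000188). Selp, the P-selectin of Weibel-Palade bodies and platelets, had 2.05, 2.43 and 0.602 CPM in Normal, 34.5, 18.8 and 6.19 in Cisplatin and 3.31, 1.59 and 1.61 in RP, in the same order of Cisplatin libraries as Icam1. It rose by 3.54 ± 0.58 (adjusted p = 0.000204) and fell by 3.19 ± 0.56 (adjusted p = 0.00041), while Vwf, stored in the same bodies, fell in Cisplatin libraries. Vcam1, the other leukocyte ligand of the list, differed by -0.63 ± 0.40 in Cisplatin against Normal (adjusted p = 0.206). Sele, E-selectin, was singled out after its values were seen and had too few reads to be tested. It had no read in any Normal or RP library and 37, 4 and 4 reads in the Cisplatin libraries, which is at least 13.8-fold higher than Normal taking 3 counts over the group as the floor, and at least 3.56-fold without Cisplatin replicate 1; such floors cover counting error only.

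**Figure D4:**
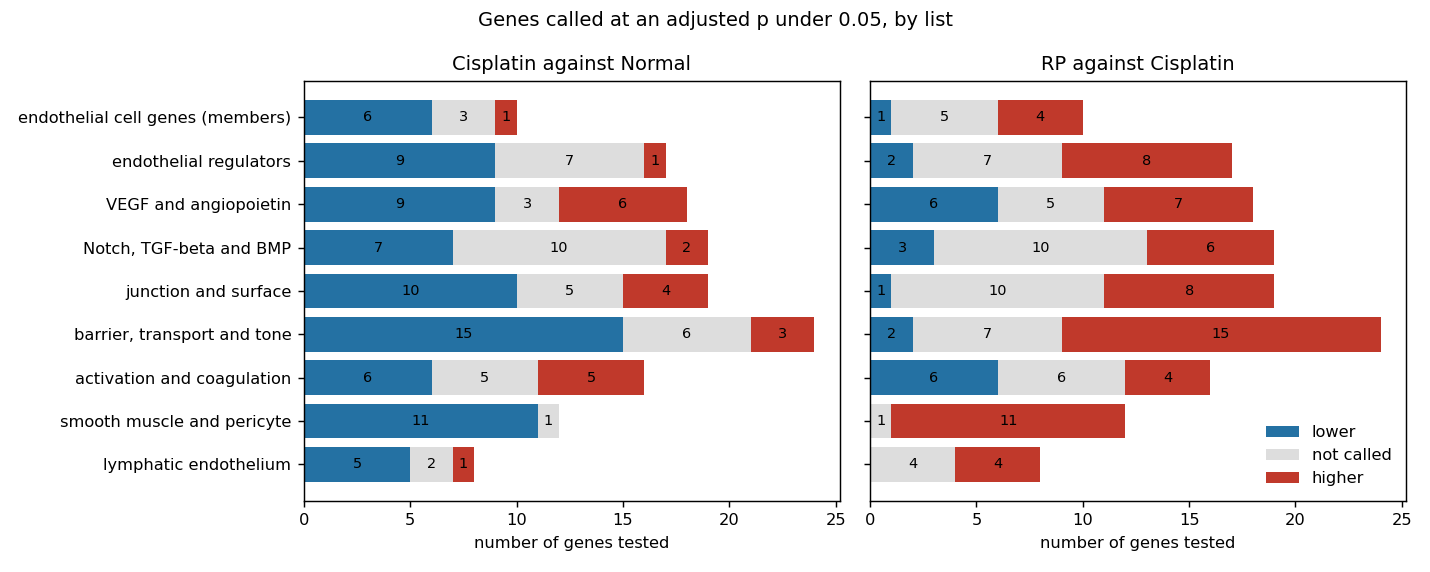
Genes called higher and lower among the tested genes of each list, for Cisplatin against Normal and RP against Cisplatin. Barrier and transport genes have 15 of 24 lower in the first comparison and 15 higher in the second. Of all genes tested, 28.2% were called lower in the first and 24.6% higher in the second.

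Markers of other cells also differed between the groups, some lists no more often than genes at large. All endothelial results stand beside the smooth muscle and pericyte genes, of which 11 of 12 fell in Cisplatin against Normal and 11 rose in RP against Cisplatin. Their summed CPM was 650 to 759 with saline, 307 to 362 with cisplatin and 613 to 693 with cisplatin and RP. The 8 fibroblast genes all fell in Cisplatin against Normal and all rose in RP against Cisplatin, with sums of 2782 to 3900, 359 to 743 and 1966 to 2837. Of 8 lymphatic endothelial genes, 5 fell and 1, Stab2, rose in Cisplatin against Normal, with sums of 148 to 157, 40.7 to 94.6 and 126 to 172. Leukocyte genes, of which 4 of 7 tested fell and 1, Cd68, rose in Cisplatin against Normal, summed to 93.7 to 133 CPM in the Normal group, 40.3 to 92.1 in the Cisplatin group and 41.8 to 52.6 with RP, and their part in the Icam1 and Selp values was not tested. Erythroid genes, from blood in the tissue, summed to 5527 to 12187, 42.2 to 78.9 and 80.9 to 552, and 7 of 7 tested were also lower in RP against Normal. Of 8 Schwann cell genes, 6 fell in Cisplatin against Normal and 5 rose in RP against Cisplatin. Of 8 muscle fibre genes, 4 fell and 1 rose in Cisplatin against Normal, with sums of 90369 to 100313, 66553 to 80068 and 94979 to 107576 in the same order of groups. Of all genes tested, 54.5% were called in Cisplatin against Normal and 48.8% in RP against Cisplatin. Beside these stood 91.7% and 91.7% of smooth muscle and pericyte genes, 100% and 100% of fibroblast genes and 100% and 85.7% of erythroid genes. Shares were 75% and 50% for lymphatic, 71.4% and 57.1% for leukocyte, 75% and 62.5% for Schwann cell and 62.5% and 62.5% for fibre genes. The part of cell makeup in the endothelial values was not tested.

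Library totals ran from 8196030 to 10678342 counts, and the 10 genes together had 2720 to 4786 counts in a library. Cisplatin replicate 3 had the lowest TMM factor, 0.850 against 0.986 to 1.09 for the others, and Cisplatin replicate 1 was the highest Cisplatin library for 6 of the 10 genes. No exon of the 10 genes shares bases with another annotated gene (GENCODE M21, GRCm38).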

How the data were processed

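Raw read counts, as deposited by the authors, came as 1 table of 23282 rows for each library; 79 rows shared 35 symbols and were summed, leaving 23238 symbols. Per the labels' protocols, libraries were made from 500 ng of Trizol-extracted total RNA. Per the submitters' processing notes, Bowtie2, edgeR and the mm10 build were used; versions, annotation, counting program and use of strand: not given in the sources used here. The ribosomal precursor Rn45s held 7.38 to 12.8% of the counts.

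The 10 genes, the gene lists and the tests were chosen with earlier results of these data known, so no p-value was adjusted over a list alone. Genes passing filterByExpr by group (12859) were tested with edgeR 4.0.16 (R 4.3.3; TMM scaling, glmQLFit over the 9 libraries with a term for each group, glmQLFTest) with Benjamini-Hochberg adjustment; an SE is the estimate over the root of its F statistic. Distances used log2(CPM + 0.5). Named genes were the 10, with Vegfa, Angpt1, Angpt2, Erg, Nos3, Plvap, up to 4 called members by smallest p of each list and comparison, and the 3 genes nearest to each of the 10 (1 of them, for Cdh5, is not reported here); those described here are a selection, with Pgf, Vegfb, Vegfc, Sele, Vcam1 and the list members named only by direction added after their values were seen. Vegfd, Cavin1, Cavin2, Gpr116 and Eltd1 are Figf, Ptrf, Sdpr, Adgrf5 and Adgrl4 in the tables, and Ly6g was not matched. Replicates differed by more than counting error (chi-square per degree of freedom 9.44 to 24.7).

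The procedure was tested on simulated data over 12544 genes. For Cisplatin against Normal it called 37 of 100 genes given a log2 change of 1 and 86 of 100 given 2. Of 12346 genes given none, it called 8. Nearly all genes there were unchanged, while 54.5% of all genes tested were called in the data for that comparison. Benjamini-Hochberg adjustment is stricter where few genes change. The share that it calls at these sizes in the data was not tested. Alternatives were RLE scaling, library size as the only scaling, no filter, limma-voom (3.58.1), DESeq2 1.42.0, a minimum of 5 CPM in 3 libraries, a replicate block, leaving out Rn45s, the 2 compared groups alone and leaving out each library. Promoters are RefSeq, searched by letters on both strands. Figures were drawn with matplotlib 3.10.9.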

Additional observations from a re-analysis of the deposited data

How the results depend on the processing

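No fold change of the 10 genes or of the named genes that was called changed direction under any of the 18 alternatives. The falls of Ptprb, Kdr, Tek and Vwf and the rise of Cldn5 in Cisplatin against Normal were called in all 18, as were Ptprb, Vwf and Cldn5 in RP against Cisplatin; the Cisplatin against Normal log2 fold change ranged from -1.39 to -1.15 for Ptprb and from 1.60 to 2.30 for Cldn5. Leaving out 1 library at a time gave 4 to 6 of the 10 genes lower in Cisplatin against Normal and 2 to 5 higher in RP against Cisplatin, with 2 without Cisplatin replicate 2 and without RP replicate 2. In RP against Normal, 24 genes of all tested were higher and 41 lower; the numbers were 123 and 170 with no filter and 103 and 126 with DESeq2, 24 lower with library size as the only scaling, and 8 to 59 higher and 14 to 62 lower when 1 library was left out, and the cause was not tested. With library size as the only scaling the median log2 fold change of all genes moved to -0.15, 0.21 and 0.06 in the 3 comparisons, and 60.2% of the calls in RP against Cisplatin were higher in place of 50.5%, and 60% in place of 36.9% in RP against Normal. Without Rn45s in the library total, which raises every CPM, the summed CPM of the 10 genes was 566.0 in Normal, 347 in Cisplatin and 509 in RP. The main values were 494, 326 and 441, and those with library size as the only scaling 494, 311 and 464. Deviations of libraries with the same replicate number correlated between -0.138 and 0.169, and those with different numbers between -0.200 and 0.123. The highest values, 0.169 and 0.160, were of Cisplatin and RP libraries sharing a number. The labels do not say that the numbers pair libraries, so the main fit has no block. With the replicate number as a block, 6 of the 10 were lower and 1 higher in Cisplatin against Normal. In RP against Cisplatin 5 were higher and 1 lower (Flt1 added, adjusted p = 0.0479). Over all genes the block gave 3368 higher and 3620 lower, 3163 and 3129, and 19 and 42 in the 3 comparisons. The block also brought under the threshold Vegfa (adjusted p = 0.0102) and Nos3 (0.0442) in RP against Cisplatin and Mmrn2 (0.0229) in RP against Normal, and took Mt2 (0.0636) out in RP against Normal; it changed no other call of a named gene. Genes of few reads, such as Tek and Cldn5, carry wide counting error.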

Other observations

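A list of genes that glucocorticoid hormones induce was counted as well. Of 12 tested, 9 rose and 1, Dusp1, fell in Cisplatin against Normal (median log2 fold change 1.38), and 1 rose and 8 fell in RP against Cisplatin (median -1.01). Calls made up 83.3% and 75% of this list, beside 54.5% and 48.8% of all genes tested. Of all genes, 26.3% were called higher in the first comparison and 24.2% lower in the second. The part of these hormones in the values was not tested. Mt2, a metallothionein, rose by 7.09 on the log2 scale, Ddit4 by 2.80 and Cebpd by 2.49 in Cisplatin against Normal. Per1 and Mt2 were also called higher in RP against Normal (adjusted p = 0.0153 and 0.0425). Per1 lost that call without Normal replicate 1 or 3 or RP replicate 1 or 3 (adjusted p from 0.0575 to 0.110), and Mt2 without any of those 4 libraries, Cisplatin replicate 1 or Cisplatin replicate 2 (0.0603 to 0.219). The Mt2 call was also lost with limma-voom (0.0679), the 2 compared groups alone (0.0642), the minimum of 5 CPM (0.0543) and the replicate block (0.0636).

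Among the Notch, TGF-beta and BMP genes of vessels, 7 of 19 tested fell and 2 rose in Cisplatin against Normal (median -0.42), and 6 rose and 3 fell in RP against Cisplatin (median 0.22). The called share was 47.4% in both comparisons, beside 54.5% and 48.8% of all genes tested, so the number of calls was not raised in this list. Dll4, the Notch ligand of tip cells and arteries, had 9.06, 7.05 and 5.41 CPM in Normal, 4.11, 4.56 and 1.67 in Cisplatin and 8.27, 5.96 and 7.97 in RP. Its fall of 1.04 ± 0.35 in Cisplatin against Normal (adjusted p = 0.0217) was not called without Normal replicate 1 (0.0969) or Cisplatin replicate 3 (0.0745). Id3, a target of BMP signalling, fell by 1.07 on the log2 scale and rose by 1.07 in RP against Cisplatin. Of 8 platelet genes 5 were tested, of which 2 fell in Cisplatin against Normal and 2 rose in RP against Cisplatin. That is 40% called in each, below the share over all genes. Of 5 epidermal genes 2 were tested and 1, Cldn1, fell.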
